A study of Homo sapiens with 12 samples.

Results

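HL-60 cells are an established line derived from a human acute myeloid leukaemia, and they stand at the promyelocytic stage of neutrophil development. The comparison described here is that of HL-60 cells kept for 3 h in 100 nM all-trans retinoic acid (ATRA) with untreated HL-60 cells, and it asks which genes respond within hours to a low dose of the retinoid. Of 58233 genes listed, 7820 reached at least 5 RPKM (reads per length of gene and per library size, in whole numbers) in at least 3 of the 12 libraries of the series, and these 7820 genes were compared. At the edge of this rule, 139 genes reached 5 RPKM in exactly 3 libraries and were tested, while 168 reached it in exactly 2 and were not. Each group had 3 libraries, made from poly(A) RNA of wild-type cells grown in RPMI medium with fetal calf serum, and neither group received the CDK4/6 inhibitor palbociclib that was given to the remaining libraries of the series. HL-60 is a single cell line, so the results describe 1 genetic background. The labels number the libraries of each group without saying whether they came from separate cultures. The p-values measure only the spread between libraries of the same group, estimated over all 12 libraries of the series, and this spread may be technical.

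ATRA is the acid form of vitamin A and the ligand of the retinoic acid receptors, nuclear receptors that sit on DNA as heterodimers with the retinoid X receptors. Without ligand the heterodimer recruits corepressors and histone deacetylases, and ligand exchanges these for coactivators, so that direct target genes can be transcribed without new protein synthesis. In promyelocytic cells retinoids start a programme of neutrophil differentiation, in which CCAAT/enhancer-binding proteins replace the regulators of proliferation such as MYC and MYB.

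ATRA raised 217 of the 7820 genes (2.77%) and lowered 152 (1.94%) at an adjusted p-value under 0.001 (limma on log2(RPKM + 0.1), Benjamini-Hochberg adjustment over all 7820 genes), which is 4.72% in either direction. In these 369 genes the 3 libraries of one group lay wholly apart from the 3 of the other. Separation alone was common, since all ATRA libraries lay above all untreated ones in 966 genes (12.4%) and below them in 1350 (17.3%), and an exact permutation test of 3 libraries against 3 cannot go below 0.1. The increases were the larger changes, with a median size of 1.11 on the log2 scale against 0.65 for the decreases. An increase of more than 1 on the log2 scale was measured in 121 genes and one of more than 2 in 47, against 22 and 3 genes among the decreases. Of the genes that rose, 7 were listed at 0 in every untreated library and 21 had an untreated mean under 2 RPKM, and for these the size on the log2 scale depends on the added constant. At an adjusted p-value under 0.05 the counts were 681 higher (8.71%) and 909 lower (11.6%), so the balance between the directions turned with the threshold. The number of libraries mattered as much: a fit to the 6 libraries of the 2 groups alone called 54 and 24 genes, of which 51 and 18 were among the 217 and 152.

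**Figure D1:**
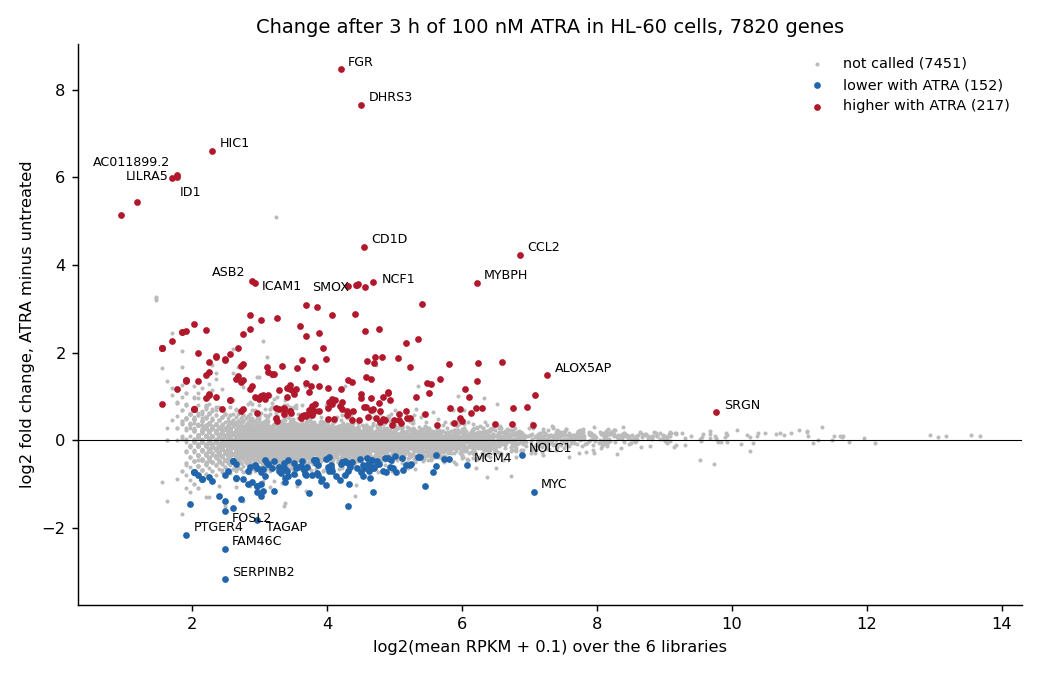
Log2 fold change between ATRA and untreated cells (vertical axis) against the log2 of the mean RPKM + 0.1 over the 6 libraries (horizontal axis), 1 point per gene, red for the 217 genes that rose, blue for the 152 that fell and grey for the rest. The increases reach further from 0 than the decreases, and the highest points are genes listed at or near 0 in untreated cells.

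Leaving out 1 library at a time also lowered the counts. They were 136 higher and 54 lower without untreated replicate 1, 144 and 59 without untreated replicate 2, and 145 and 55 without untreated replicate 3. Without ATRA replicate 1 they were 186 and 86, without ATRA replicate 2 they were 126 and 47, and without ATRA replicate 3 they were 128 and 56. Of the genes called from all libraries, 119 of 217 and 40 of 152 kept their call whichever library was left out, and the others kept an adjusted p-value of at most 0.0072 for increases and 0.00679 for decreases. The genes called in every setting in which they were tested, the 6-library fit included, numbered 48 and 15, and no called gene changed direction in any of them.

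The labelled cell type was checked against its markers. MPO, the myeloperoxidase of primary granules, was at 1254, 1372 and 1411 RPKM in untreated cells and at 1116, 1077 and 1205 with ATRA, and the granule protease gene PRTN3 was at 196 to 252 and 241 to 303 RPKM. The myeloid genes SPI1, CEBPA, MYB, AZU1, CTSG and CD33 were also present in all 6 libraries, whereas ELANE, another defining protease of promyelocytes, was listed at 0 in untreated cells and at 1, 1 and 0 with ATRA. Of 30 markers of lymphoid, erythroid, platelet, epithelial, stromal and endothelial cells, 27 were at 0 in all 6 libraries, and only VIM and PECAM1 exceeded 1 RPKM. The summed level of these 30 markers was 18 to 21 RPKM in untreated cells and 18 to 19 with ATRA. Within this sum VIM was at 16, 19 and 16 RPKM in untreated cells and at 13, 13 and 11 with ATRA (limma adjusted p = 0.00482), and PECAM1 was at 2 RPKM in each untreated library and at 4, 5 and 6 with ATRA (adjusted p = 0.00135). Neither gene overlapped between the groups, they differed in opposite directions, and their part in the results was not tested. The RPKM of a library summed to between 363245 and 386651, and the number of reads behind each library is unknown.

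ATRA replicate 1 stood apart from replicates 2 and 3 by gene length. Its median deviation from the ATRA mean was 0.128 on the log2 scale for the shortest of 4 equal groups of genes by exonic length and -0.104 for the longest, while untreated libraries stayed between -0.019 and 0.047. It was the lowest of the 3 ATRA libraries in 149 of the 217 genes that rose (68.7%), against 29.9% of all genes tested. Among the shortest genes it was lowest in 54.5% of those that rose and in 9.7% of all tested, and among the longest in 75.0% and 54.2%. The median increase of the 217 genes was 0.97 in this library and 1.2 in each of the other two. The part of this library in any single result was not tested beyond leaving it out.

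**Figure D2:**
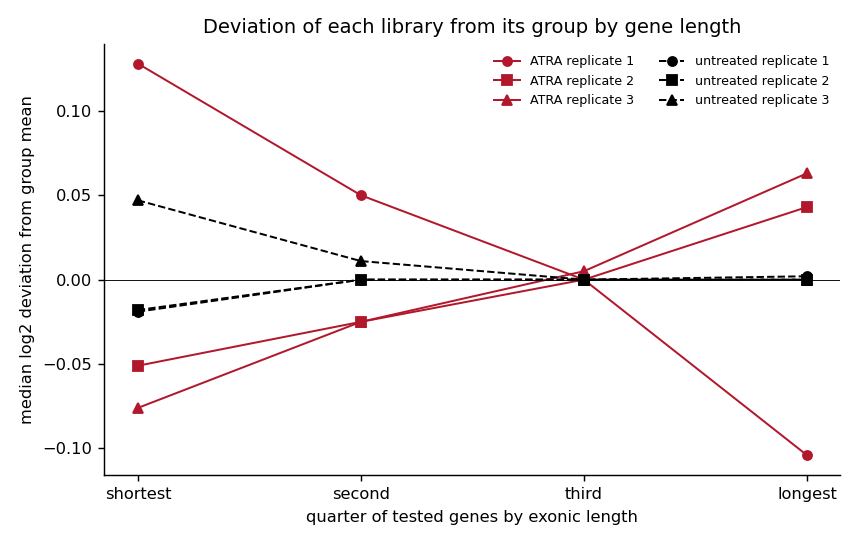
Median deviation of each library from the mean of its group, on the log2 scale (vertical axis), in 4 equal groups of the tested genes ordered by exonic length (horizontal axis), red for ATRA and black for untreated libraries. ATRA replicate 1 runs from 0.128 in the shortest genes to -0.104 in the longest, and ATRA replicates 2 and 3 run the other way.

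The genes with the largest increases included several at or near the lower limit of the measurement in untreated cells. FGR, a Src family kinase of myeloid cells, was listed at 0 in every untreated library and at 23, 39 and 48 RPKM with ATRA (limma adjusted p = 2.95e-05). HIC1, a zinc finger repressor of transcription, was listed at 0 and then at 8, 11 and 10 RPKM (adjusted p = 1.8e-07). LILRA5, an activating leukocyte immunoglobulin-like receptor, was listed at 0 and then at 4, 8 and 8 RPKM (adjusted p = 5.55e-06). These 3 genes kept their call in every setting in which they were tested. ID1, an inhibitor of basic helix-loop-helix factors, was listed at 0 and then at 5, 7 and 7 RPKM (adjusted p = 0.000282). DHRS3, which reduces retinaldehyde to retinol, was at 0, 1 and 0 RPKM and then at 40, 48 and 47 (adjusted p = 0.000384). ID1 lost its call when any 1 of the 6 libraries was left out and DHRS3 when any of 5 was, with adjusted p-values of at most 0.00226 and 0.0035. The transcript AC011899.2 was listed at 0 and then at 5, 7 and 8 RPKM, but it lies within PTPRN2 on the opposite strand. Reads were counted with the defaults of htseq-count, which go by strand, but whether the library kit kept strand is not given in the sources used here, so the values of this pair are uncertain.

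Other large increases were measured in genes with an untreated level above 0. CCL2, the chemokine that attracts monocytes, went from 11, 11 and 13 RPKM to 207, 232 and 221, a log2 fold change of 4.23 ± 0.09 (SE, n = 3 per group, limma adjusted p = 8.11e-10). CD1D, which presents lipids to natural killer T cells, was at 2 RPKM in each untreated library and at 38, 49 and 47 with ATRA (4.41 ± 0.16, adjusted p = 4.62e-08). Both genes had tight replicates and no overlap between the groups. SMOX, the spermine oxidase of polyamine breakdown, went from 4, 3 and 3 RPKM to 41, 41 and 39 (3.57 ± 0.16, adjusted p = 1.81e-07). SLC2A5, the fructose transporter, went from 4, 3 and 3 to 35, 44 and 41 (3.55 ± 0.15, adjusted p = 1.8e-07). PLEKHO1, a pleckstrin homology domain protein, went from 3, 4 and 3 to 39, 44 and 36 (3.54 ± 0.12, adjusted p = 3.49e-08). ASB2, the substrate-binding part of a ubiquitin ligase, went from 1 RPKM in each library to 11, 15 and 15 (3.63 ± 0.17, adjusted p = 2.01e-07). MYBPH, a myosin-binding protein gene, was at 8, 13 and 13 RPKM and then at 96, 155 and 162 (3.59 ± 0.27, adjusted p = 8.16e-06), with ATRA replicate 1 well below the other two.

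**Figure D3:**
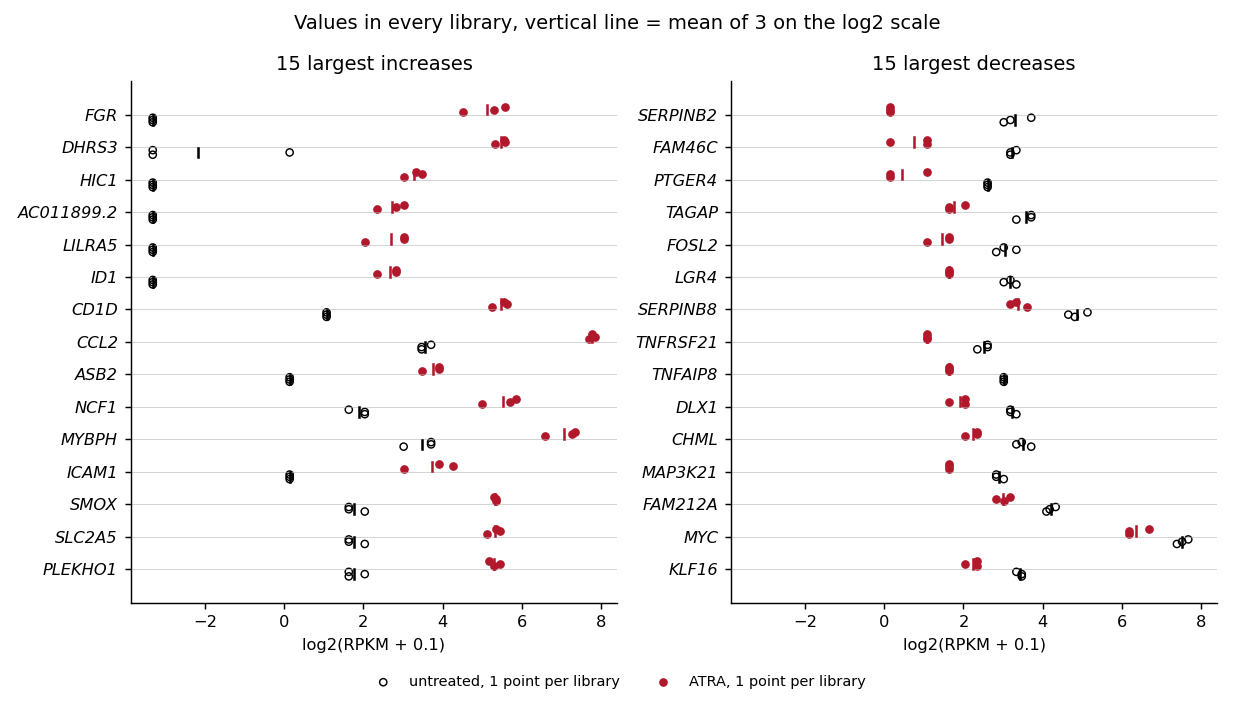
Values of the 15 genes with the largest increases (left) and the 15 with the largest decreases (right) in every library, as log2(RPKM + 0.1), open circles for untreated and red circles for ATRA libraries, with a vertical line at the mean of each group on that scale. The groups do not overlap in any of the 30 genes, and FGR, HIC1, AC011899.2, LILRA5 and ID1 sit at 0 RPKM in all untreated libraries.

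The decreases began from moderate levels, as the filter at 5 RPKM largely requires of genes that fall, and were smaller. SERPINB2, the plasminogen activator inhibitor of type 2, fell from 8, 9 and 13 RPKM to 1 in each ATRA library, a log2 fold change of -3.17 ± 0.24 (limma adjusted p = 9.23e-06). SERPINB8, a serpin gene nearby on chromosome 18, fell from 28, 25 and 35 to 12, 9 and 10 RPKM (-1.49 ± 0.17, adjusted p = 0.000158). PTGER4, the prostaglandin E2 receptor EP4, fell from 6 RPKM in each library to 1, 1 and 2 (-2.16 ± 0.22, adjusted p = 6.11e-05). FAM46C, a non-canonical poly(A) polymerase, fell from 9, 9 and 10 to 2, 1 and 2 RPKM (-2.48 ± 0.29, adjusted p = 0.000155), and TAGAP, a GTPase-activating protein, from 10, 13 and 13 to 3, 3 and 4 (-1.82 ± 0.16, adjusted p = 2.75e-05). The AP-1 subunit gene FOSL2 went from 7, 10 and 8 to 2, 3 and 3 RPKM (adjusted p = 0.000616). LGR4, a receptor for R-spondins, fell from 10, 8 and 9 to 3 RPKM in each library (-1.55 ± 0.16), TNFRSF21, a death receptor, from 5, 6 and 6 to 2 (-1.45 ± 0.12), and TNFAIP8 from 8 to 3 (-1.39 ± 0.1). Further down the order stood the homeobox gene DLX1 (-1.33), the kinase gene MAP3K21 and the Rab escort protein gene CHML (both -1.26), FAM212A (-1.19) and the zinc finger gene KLF16 (-1.18). SERPINB8, FAM46C, FOSL2, DLX1 and CHML lost their call when at least 1 library was left out, with adjusted p-values of at most 0.00137, 0.00142, 0.0043, 0.0011 and 0.00286, while SERPINB2, LGR4, TNFRSF21, TNFAIP8 and MAP3K21 kept theirs in every setting in which they were tested. Rounding sets a limit here, because at 1 to 3 RPKM a step of 1 is a large part of the value.

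**Figure D4:**
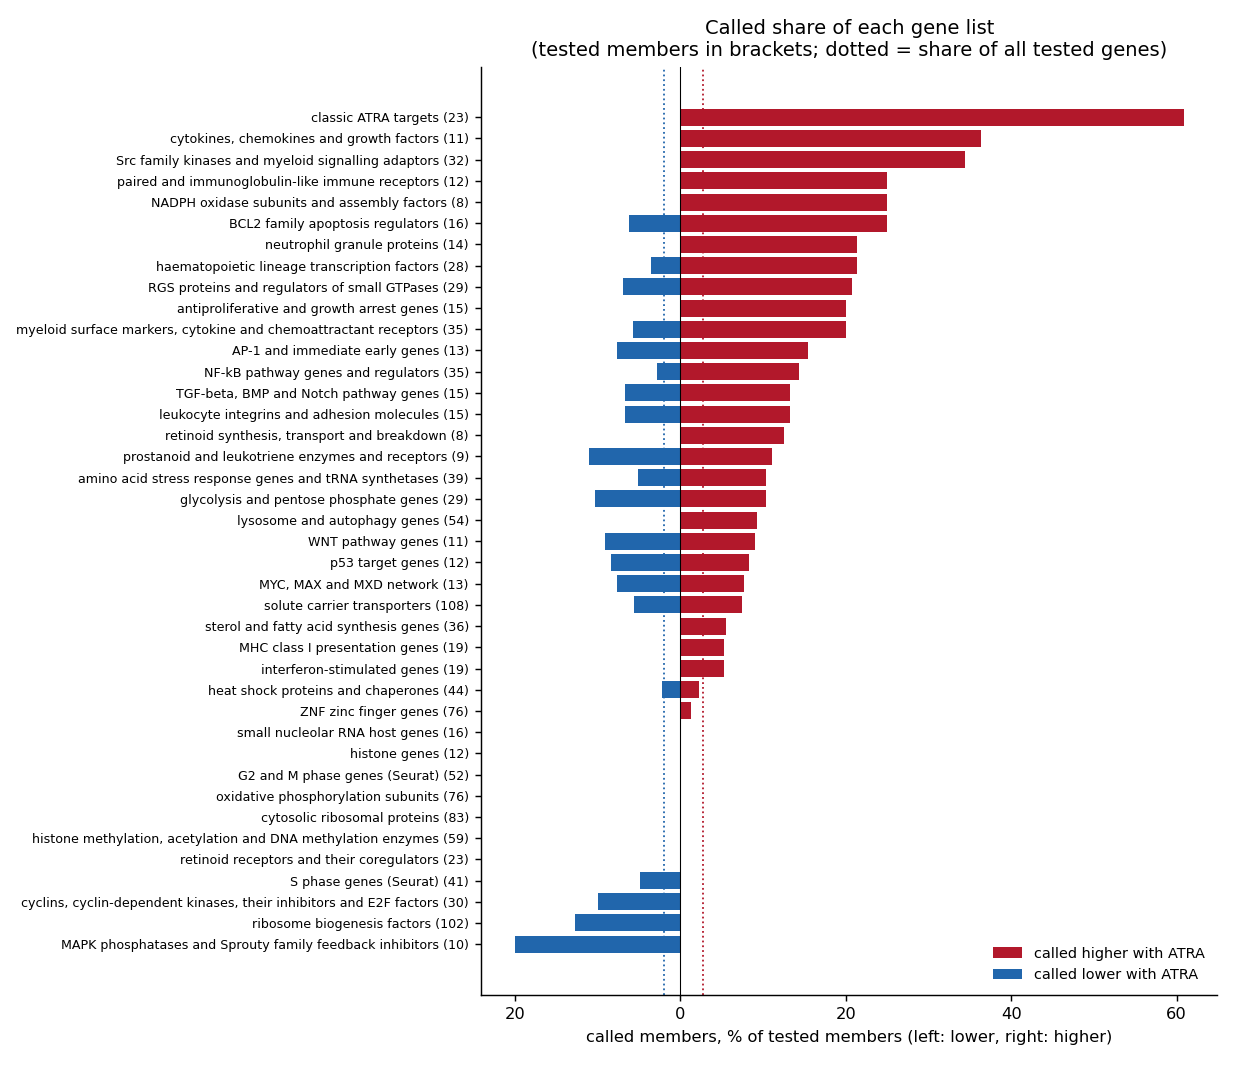
Share of the tested members of each gene list that rose (red, to the right) or fell (blue, to the left) with ATRA, in percent, for the lists with at least 8 tested members, with the number tested in brackets and dotted lines at the shares among all genes tested. The list of classic ATRA targets reaches 60.9% higher, and ribosome biogenesis, cyclin, S phase and MAPK phosphatase lists show decreases only. Genes low in untreated cells are among the tested members only where treated libraries reached 5 RPKM.

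The genes were then grouped by function in 43 lists, and each list is described by its counts beside the background of 2.77% higher and 1.94% lower and beside the median change of all genes, -0.01. In every list, genes low in untreated cells were tested only where treated libraries reached 5 RPKM. The shares of increases among tested members therefore partly follow from the filter wherever such genes were called. Of 44 genes known as ATRA targets in myeloid or other cells, 23 reached the level needed for the test, 14 of them rose (60.9%) and none fell, with a median of 1.76. The filter counted treated libraries too, so FGR, HIC1, ID1 and others low in untreated cells were tested only because treated libraries reached 5 RPKM. Silent members that did not rise were left untested, so this share and median partly follow from the filter. Over the whole list, 14 of 44 were called higher. The list was also drawn up with earlier results of these data known. Besides the genes above, this list gave ICAM1, the ligand of leukocyte integrins, at 1 RPKM in each untreated library and at 8, 19 and 15 with ATRA (3.59 ± 0.34, limma adjusted p = 3.84e-05). CD38, the ectoenzyme that is a classical retinoid-induced surface marker of HL-60, rose from 3, 2 and 2 to 13, 17 and 20 RPKM (2.79 ± 0.22, adjusted p = 1.22e-05). NDRG1, a stress-responsive differentiation gene, rose from 2 RPKM in each library to 9, 14 and 14 (2.54 ± 0.19, adjusted p = 7.07e-06), IRF1 from 2, 2 and 1 to 7, 7 and 6 (2.0 ± 0.21), BTG2 from 5, 4 and 5 to 14, 17 and 15 (1.7 ± 0.14) and the adaptor gene PRAM1 from 4, 6 and 4 to 12, 13 and 15 (1.51 ± 0.17). TNFAIP2 and BTG1 missed the threshold with log2 fold changes of 1.16 and 0.46 and adjusted p-values of 0.00622 and 0.0114, and IL1RN and RAI1 had values of -0.38 and -0.4 with adjusted p-values of 0.216 and 0.0594. Of the 21 members below the level needed, 14 were at 0 in all 6 libraries, among them RARB and CYP26A1, the receptor and the hydroxylase that serve as retinoid reporters in many other cells. The integrin genes ITGAM and ITGAX, late markers of myeloid maturation, were listed at 0 in untreated cells and at 1, 1 and 2 RPKM and 1, 2 and 2 RPKM with ATRA, too low to test.

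The receptors and coregulators themselves gave no call. None of 23 tested members was called, and 4 rose and 4 fell at an adjusted p-value under 0.05 (backgrounds 8.71% and 11.6%). RARA, which encodes the retinoic acid receptor alpha, was at 10, 11 and 10 RPKM and then at 15, 18 and 16 (0.65 ± 0.11, limma adjusted p = 0.00202), and RXRA, its heterodimer partner, at 12, 14 and 14 and then at 8, 9 and 10 (-0.56 ± 0.12, adjusted p = 0.00706). The groups did not overlap for either gene, although neither passed the threshold. NRIP1, a ligand-dependent corepressor, was at 4 RPKM in each untreated library and at 7, 14 and 14 with ATRA (1.45 ± 0.32, adjusted p = 0.00816), and NCOA3, a coactivator, was at 22, 25 and 23 and then at 37, 69 and 67 (1.25 ± 0.3, adjusted p = 0.0125). In both of these the low value was that of ATRA replicate 1. The demethylase gene KDM1A was at 36, 37 and 37 and then at 31, 29 and 29 RPKM (-0.31 ± 0.05, adjusted p = 0.00145). RARG was listed at 0 in untreated cells and at 1 RPKM in each ATRA library. Of 31 genes for synthesis, transport and breakdown of retinoids, 8 were tested and DHRS3 alone was called, and 20 were at 0 in all 6 libraries.

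A pair of hexamer half-sites repeated in the same direction is the motif that retinoid receptor heterodimers bind, and a spacing of 5 bases is its classical form. The half-sites searched were AGGTCA and its variants with the letters AGTTCA, with GGGTCA and with GGTTCA. Within 5000 bases on each side of the annotated gene start, on either strand of hg38, such a repeat with spacing 5 was present at 8 of the 217 genes that rose (3.69%), at 4 of the 152 that fell (2.63%) and at 164 of 7761 genes (2.11%). The 8 include NCF1 and its near-identical copies NCF1B and NCF1C, whose repeats have the same letters. The share of 3.69% therefore counts the same duplicated stretch more than once. With spacing 1 the shares were 5.99%, 1.97% and 3.98%, and with spacing 2 they were 46.1%, 36.8% and 45.1%. The repeats of HIC1, NCF1 and PLEK are printed because these genes were among the clear increases. Capitals mark the half-sites, and 5 bases are given on either side.
HIC1: cgccgGGTTCAcggcgGGGTCAgcggc
NCF1: tacagAGGTCAttacaAGGTCAaactc
PLEK: gccagAGGTCAccaccAGTTCAaaggc
The HIC1 sequence lies at chr17:2055415-2055441 on the plus strand, 1266 bases after the gene start and within the gene but in no annotated exon. The NCF1 sequence lies at chr7:74769605-74769631 on the plus strand, 4401 bases before the gene start and in no annotated gene, and the same letters precede the near-identical copies NCF1B and NCF1C. The PLEK repeat lies 4006 bases before the gene start, in an exon of another annotated gene. PLEK, the pleckstrin gene, rose from 45, 42 and 42 to 142, 156 and 150 RPKM (1.79 ± 0.06, limma adjusted p = 3.49e-08). A match of letters is no proof of binding, and receptor binding was not measured.

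Among 28 tested transcription factors of the haematopoietic lineages, 6 rose and 1 fell. CEBPE, which drives the late stages of granulocyte maturation, rose from 34, 32 and 37 to 116, 116 and 118 RPKM (1.76 ± 0.08, limma adjusted p = 1.81e-07), and CEBPB, a factor of emergency granulopoiesis and of monocytes, from 6, 7 and 8 to 36, 45 and 39 (2.5 ± 0.12, adjusted p = 3.62e-07). Both kept their call in every setting tried. CEBPA rose from 33, 35 and 36 to 56, 55 and 47 RPKM (0.6 ± 0.08, adjusted p = 0.000532), GFI1, a repressor needed for neutrophil development, from 53, 56 and 57 to 84, 85 and 86 (0.62 ± 0.05, adjusted p = 1.18e-05), and ETV6 from 6 in each library to 9, 10 and 9 (0.63 ± 0.06, adjusted p = 3.48e-05). MYB, which keeps progenitors proliferating, fell from 58, 54 and 64 to 26, 26 and 33 RPKM (-1.05 ± 0.14, adjusted p = 0.00039). GATA2, a transcription factor gene of blood stem and progenitor cells, was at 7, 10 and 12 and then at 3, 3 and 5 RPKM. NFE2 was at 2, 4 and 5 and then at 10, 15 and 15, and neither gene passed the threshold (limma adjusted p = 0.0124 and 0.00141). SPI1, which encodes PU.1, was at 80, 86 and 85 and then at 108, 102 and 105 RPKM without being called. Without 1 library, CEBPA and MYB had adjusted p-values of up to 0.00402 and 0.00308. Outside the lists, WT1 and HHEX, chosen after their values were seen, fell from 13, 13 and 15 to 7 RPKM in each library and from 19, 21 and 19 to 11, 10 and 11.

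Of 32 tested Src family kinases and adaptors of myeloid signalling 11 rose (34.4%) and none fell, with a median of 0.2. After FGR came SLA, an adaptor that dampens antigen receptor signalling, from 4, 6 and 5 to 32, 41 and 39 RPKM (2.89 ± 0.17, limma adjusted p = 1.54e-06). SH2B3, the adaptor LNK that restrains cytokine receptors, rose from 14, 14 and 13 to 33, 39 and 37 (1.4 ± 0.09, adjusted p = 2.59e-06). The other members that rose were PRAM1, LCP2, PIK3R5, DOK2, PTPN6, LYN, LAT2 and VAV1, by 0.46 to 1.51 on the log2 scale, and they include the kinase LYN and the phosphatase SHP-1 that PTPN6 encodes. PRAM1, LAT2 and VAV1 lost their call without at least 1 library, with adjusted p-values of up to 0.0014, 0.00583 and 0.00234. PIK3CG, which encodes a phosphoinositide 3-kinase of leukocytes, was at 11, 13 and 12 and then at 27, 49 and 46 RPKM (1.71, adjusted p = 0.00201), and its ATRA replicate 1 was again the lowest.

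The effector genes of mature phagocytes responded in part. NCF1, the p47 organiser of the NADPH oxidase, rose from 4, 4 and 3 to 32, 52 and 58 RPKM (3.62 ± 0.25, limma adjusted p = 5.01e-06), but the copies NCF1B and NCF1C rose alike from 3 to 4 RPKM to at least 26 RPKM, and reads cannot be divided among the 3 with certainty. CYBB, the catalytic subunit, rose from 25, 28 and 27 to 50, 73 and 75 RPKM (1.28 ± 0.19, adjusted p = 0.000832), and lost its call without at least 1 library (adjusted p up to 0.00664). The other 6 tested members of the complex, CYBA, NCF4, RAC1, RAC2 and ARHGDIB among them, were not called. Of 14 tested granule genes 3 rose and none fell, but 9 had a log2 fold change below 0 and the list median was -0.21. At a limma adjusted p-value under 0.05, 4 rose and 3 fell. SERPINB1, the inhibitor of neutrophil elastase, rose from 15, 12 and 14 to 61, 68 and 75 RPKM (2.31 ± 0.14, adjusted p = 1.54e-06). CHI3L1, the chitinase-like protein of specific granules, rose from 12, 16 and 14 to 39, 55 and 62 (1.87 ± 0.21, adjusted p = 0.000154), and SRGN, the granule proteoglycan serglycin and by the mean over the 6 libraries the most abundant gene that rose, from 666, 651 and 740 to 1022, 1102 and 1069 (0.64 ± 0.07, adjusted p = 0.000131). CHI3L1 and SRGN missed the threshold without at least 1 library (adjusted p up to 0.00164 and 0.00125). LYZ, which encodes lysozyme, was at 902, 982 and 1149 and then at 682, 677 and 717 RPKM (-0.54, adjusted p = 0.00738). MYBPH and CHI3L1 are neighbours on chromosome 1, 3105 bases apart.

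Of 35 myeloid surface markers and receptors 7 rose and 2 fell. CCR1 and CCR2, chemokine receptors encoded 145551 bases apart on chromosome 3, rose from 4 RPKM in each library to 16, 25 and 24 (2.38 ± 0.25, limma adjusted p = 7.28e-05) and from 15, 19 and 19 to 44, 63 and 64 (1.67 ± 0.2, adjusted p = 0.000238). CCR2 is the receptor for the product of CCL2. P2RX1, IFNAR2, CSF2RA and CD53 rose by 0.44 to 1.5, while TLR2 fell from 10, 11 and 11 to 5, 5 and 6 RPKM (-0.99 ± 0.11). CSF3R, the receptor for granulocyte colony-stimulating factor, was at 4 RPKM in each library and then at 8, 12 and 14 without being called (1.44, adjusted p = 0.00113). Of 12 paired immune receptors LILRA5, CD300LB and SIRPA rose, and CD300LB was listed at 0 in untreated cells and at 2, 4 and 5 RPKM with ATRA. LILRA5 too was listed at 0 in untreated cells, so both were tested only because treated libraries reached 5 RPKM. Of the 35 immune receptors left untested, 18 were at 0 in all 6 libraries. Of 15 integrins and adhesion molecules 2 rose and 1 fell, with ICAM1 among the increases. ITGA5, the fibronectin receptor subunit, rose from 10, 12 and 11 to 37, 45 and 42 RPKM (1.9 ± 0.1, adjusted p = 4.29e-07), and CD47, the signal against phagocytosis, fell from 18, 14 and 16 to 10, 9 and 9 (-0.77 ± 0.09, adjusted p = 0.000195). Of 11 cytokine genes 4 rose, namely CCL2, CXCL8 from 12, 12 and 14 to 54, 66 and 58 RPKM (2.22 ± 0.11, adjusted p = 4.7e-07), HBEGF from 6, 7 and 7 to 18, 28 and 28 (1.85 ± 0.2, adjusted p = 8.38e-05) and TNF from 52, 53 and 62 to 94, 86 and 98 (0.74 ± 0.11, adjusted p = 0.000936). CCR2, P2RX1, IFNAR2, CSF2RA, CD53, CD300LB, SIRPA, CD47, HBEGF and TNF lost their call without at least 1 library, with adjusted p-values of up to 0.0072 for TNF.

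Of 9 tested enzymes and receptors of prostanoids and leukotrienes 1 rose and 1 fell. ALOX5AP, the protein that presents arachidonic acid to 5-lipoxygenase, rose from 80, 88 and 75 to 196, 249 and 236 RPKM (1.48 ± 0.12, limma adjusted p = 1.28e-05), whereas PTGER4 fell, and the other 7 were not called. Among 29 regulators of small GTPases and heterotrimeric G proteins 6 rose and 2 fell. ARHGEF3 rose from 2 RPKM in each library to 12, 16 and 14 (2.74 ± 0.16, adjusted p = 1.54e-06), RHOQ from 5, 4 and 4 to 12, 13 and 14 (1.57 ± 0.1) and RGS16, which speeds up the turn-off of G proteins, from 28, 31 and 29 to 63, 63 and 60 (1.08 ± 0.05, adjusted p = 3.62e-07). Of 10 MAPK phosphatases and feedback inhibitors none rose, and DUSP2 and DUSP3 fell from 11 RPKM to 7 in each library (-0.64 ± 0.06) and from 18, 18 and 19 to 11, 10 and 11 (-0.78 ± 0.06). Of 13 immediate early genes IER5 and MAFG rose and FOSL2 fell, and each lost its call when any 1 library was left out (adjusted p up to 0.00592). ZFP36, IER2 and JUND had values of 0.65, 0.76 and 0.42 with adjusted p-values of 0.00126, 0.00678 and 0.0415.

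Among 35 genes of the NF-kB pathway 5 rose and 1 fell. BCL3, an atypical inhibitor of NF-kB, rose from 1 RPKM in each library to 5, 7 and 4 (2.27 ± 0.29, limma adjusted p = 0.000357), and MAP3K8 from 2, 3 and 2 to 6 in each (1.35 ± 0.18, adjusted p = 0.000416), and both lost their call without at least 1 library (adjusted p up to 0.00272 and 0.00314). NLRP3 and TAB2 rose by 0.68 and 0.48, the latter with an adjusted p of up to 0.0017 without 1 library. Of 19 interferon-stimulated genes IRF1 alone was called, and SAMHD1 was at 54, 52 and 56 and then at 83, 115 and 123 RPKM (0.97, adjusted p = 0.00198). Of 19 genes of class I antigen presentation HLA-E alone was called, from 82, 78 and 76 to 104, 102 and 98 (0.37 ± 0.05, adjusted p = 0.000335, up to 0.00261 without 1 library). SMAD3, a transducer of TGF-beta signals, rose from 4, 3 and 3 to 9, 10 and 9 RPKM (1.47 ± 0.11, adjusted p = 8.16e-06), while the receptor gene TGFBR1 fell from 11, 11 and 10 to 6 in each library (-0.82 ± 0.08, adjusted p = 6.64e-05).

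The genes of cell survival moved in both directions. Of 16 tested members of the BCL2 family 4 rose and 1 fell. BIK, a BH3-only protein that promotes apoptosis, rose from 3, 3 and 4 to 18, 21 and 23 RPKM (2.6 ± 0.18, limma adjusted p = 3.84e-06). BCL2A1, which inhibits apoptosis in neutrophils, rose from 4 to 13 RPKM in each library (1.68 ± 0.08, adjusted p = 4.25e-07). PMAIP1, the BH3-only protein NOXA, rose from 18, 21 and 18 to 38, 44 and 41 (1.11 ± 0.07, adjusted p = 3.84e-06), and the survival gene MCL1 from 120, 119 and 112 to 143, 153 and 152 (0.35 ± 0.05, adjusted p = 0.000561, up to 0.00435 without 1 library). BCL2 fell from 13 to 8 RPKM in each library (-0.69 ± 0.07, adjusted p = 4.33e-05). The genes that rose were thus 2 promoters and 2 inhibitors of apoptosis, and the one that fell encodes an inhibitor. Of 15 growth-restraining genes tested 3 rose, namely NDRG1, BTG2 and the translation inhibitor PDCD4, the last from 11, 11 and 10 to 17, 16 and 16 RPKM (0.61 ± 0.06, adjusted p = 5.81e-05). DDIT4, an inhibitor of the mTOR complex, rose from 4, 5 and 3 to 30, 33 and 25 RPKM (2.86 ± 0.19, adjusted p = 3.84e-06).

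MYC, the driver of growth and division, fell from 168, 184 and 205 to 72, 73 and 103 RPKM, a log2 fold change of -1.18 ± 0.18 (limma adjusted p = 0.000922), and by the mean over the 6 libraries it was the most abundant gene that fell. Its call was lost when any of 5 of the 6 libraries was left out (adjusted p up to 0.00623), and ATRA replicate 3 was the highest of its group. MXD4, whose product competes with MYC for MAX, rose from 2 RPKM in each library to 4, 4 and 3 (0.83 ± 0.11, adjusted p = 0.000515). The adjusted p-value of MXD4 was up to 0.00367 without 1 library, 0.0135 in the fit of the 6 libraries alone and 0.0841 after quantile normalization, where the log2 fold change was 0.42. Of 30 cyclins, kinases, inhibitors and E2F factors 3 fell and none rose. CDC25A, the phosphatase that activates CDK2, fell from 36, 35 and 34 to 22, 21 and 22 RPKM (-0.69 ± 0.06, adjusted p = 3.37e-05), CCNE1 from 15, 13 and 15 to 9, 8 and 8 (-0.77 ± 0.1, adjusted p = 0.00032) and SKP2 from 43, 46 and 46 to 29, 32 and 32 (-0.54 ± 0.06, adjusted p = 0.000225). Of 41 S phase genes 2 fell, CDCA7 from 60, 58 and 60 to 37, 36 and 35 RPKM (-0.72 ± 0.07, adjusted p = 3.41e-05) and MCM4 from 79, 80 and 82 to 52, 56 and 54 (-0.57 ± 0.08, adjusted p = 0.00055). At an adjusted p-value under 0.05, 21 of the 41 fell and none rose, and the list median was -0.29. None of 52 genes of the G2 and M phases was called, with a median of 0.02. CCNE1, SKP2 and MCM4 missed the threshold without at least 1 library (adjusted p up to 0.00257, 0.00174 and 0.00359).

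Ribosome biogenesis factors gave the largest set of decreases. Of 102 tested members 13 fell (12.7%) and none rose, 45 fell at an adjusted p-value under 0.05, 2 had a log2 fold change above 0, and the median was -0.33. URB2 fell from 13, 12 and 13 to 5, 5 and 7 RPKM (-1.16 ± 0.15, limma adjusted p = 0.000325). The RNA polymerase I subunit genes POLR1B and POLR1E fell from 23, 21 and 23 to 12, 12 and 14 (-0.82 ± 0.11, adjusted p = 0.000556) and from 27, 27 and 30 to 18, 16 and 17 (-0.72 ± 0.07, adjusted p = 3.53e-05). WDR3, of the small subunit processome, fell from 21, 20 and 21 to 13, 12 and 13 RPKM (-0.7 ± 0.07, adjusted p = 3.95e-05). NOLC1, by the same mean the most abundant of the 13, fell from 135, 131 and 131 to 108, 101 and 105 (-0.34 ± 0.05, adjusted p = 0.000613). URB2, POLR1B and NOLC1 lost their call without at least 1 library, with adjusted p-values of up to 0.00284, 0.0042 and 0.00461. The structural proteins of the ribosome did not share these decreases: of 83 tested, none was called, 1 fell at an adjusted p-value under 0.05, and the median was 0.11 within a range of -0.24 to 0.23. Without ATRA replicate 1 that median was 0.02. Oxidative phosphorylation subunits, 76 tested with a median of 0.08, and 59 histone and DNA modifying enzymes, with a median of -0.08, gave no call either.

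**Figure D5:**
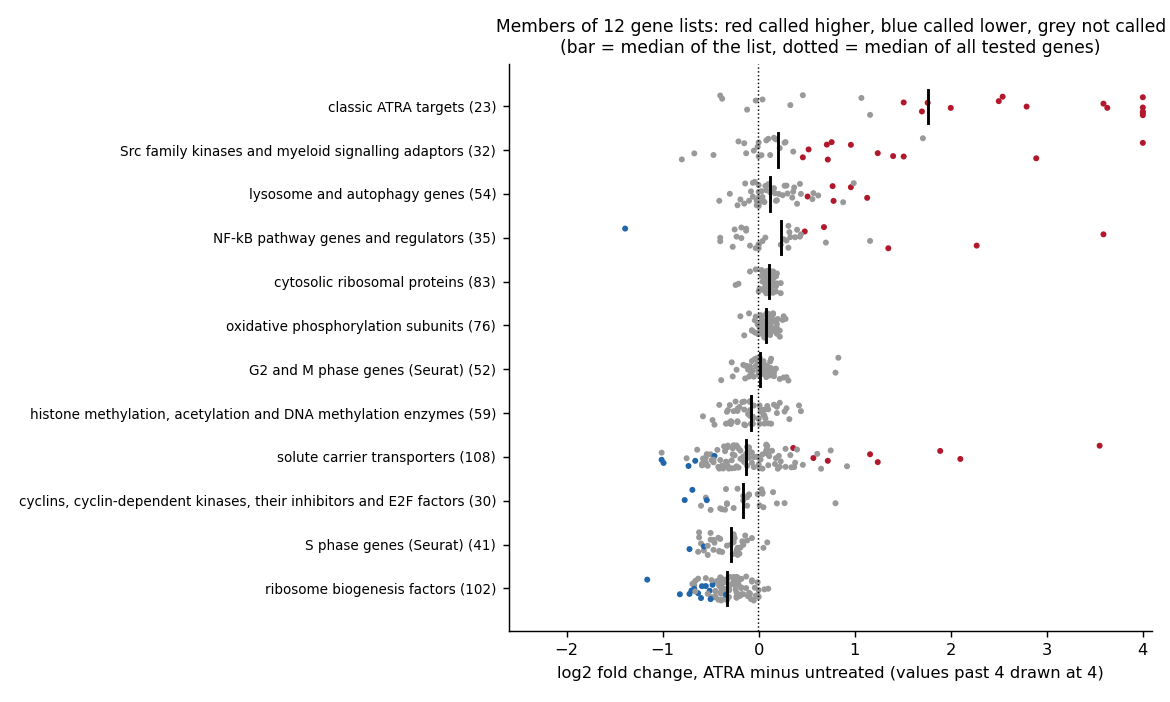
Log2 fold change between ATRA and untreated cells (horizontal axis, values past 4 drawn at 4) of every tested member of 12 gene lists, 1 point per gene, red for genes that rose, blue for genes that fell and grey for the others, with a bar at the median of each list and a dotted line at the median of all genes. Classic ATRA targets lie to the right with a median of 1.76, ribosome biogenesis and S phase genes to the left with medians of -0.33 and -0.29, and ribosomal protein genes lie close together around 0.11. Targets low in untreated cells are shown only where treated libraries reached 5 RPKM.

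Metabolic genes were called in both directions. Of 29 glycolysis and pentose phosphate genes 3 rose and 3 fell. The transporters SLC2A5, SLC2A6 and SLC16A3 rose, SLC2A6 from 2 RPKM in each library to 5, 10 and 9 (1.89 ± 0.28, limma adjusted p = 0.000822). SLC2A1, the basal glucose transporter GLUT1, fell from 9, 9 and 10 to 5, 4 and 5 RPKM (-0.99 ± 0.12, adjusted p = 0.000198), HK2, the hexokinase of growing cells, from 36, 33 and 37 to 17, 13 and 17 (-1.18 ± 0.15, adjusted p = 0.000317), and PFKP fell by 0.43. These genes other than SLC2A5 lost their call without at least 1 library, with adjusted p-values of up to 0.00568. Among 108 solute carriers 8 rose and 6 fell, and the latter included SLC7A5, the large neutral amino acid transporter, from 39, 43 and 39 to 27, 22 and 24 (-0.73 ± 0.09, adjusted p = 0.000316, up to 0.0025 without 1 library). Of 54 lysosome and autophagy genes 5 rose and none fell. The cathepsin genes CTSZ, CTSB and CTSA rose by 1.13, 0.78 and 0.51, ATG2A by 0.96, and PSAP, the precursor of the saposins, from 86, 99 and 90 to 134, 170 and 167 RPKM (0.77 ± 0.11, adjusted p = 0.00066), and CTSB, ATG2A and PSAP lost their call without at least 1 library (adjusted p up to 0.00524). ACSL1, which activates long-chain fatty acids, rose from 13, 12 and 13 to 28, 38 and 39 (1.44 ± 0.13, adjusted p = 3.27e-05). XBP1, a transcription factor of secretory capacity, rose from 75, 85 and 83 to 136, 141 and 129 RPKM (0.74 ± 0.06, adjusted p = 2.14e-05), and no gene of the heat shock list other than it and HSF2, which fell, was called among 44. The call of HSF2 was lost when any 1 library was left out (adjusted p up to 0.00495).

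The remaining lists held few called genes. Of 39 amino acid stress and tRNA synthetase genes 4 rose and 2 fell, with DDIT4, CEBPB, PPP1R15A and WARS higher, and TRIB3, a pseudokinase of the stress response, lower along with SLC7A5. PPP1R15A, WARS and TRIB3 lost their call when any 1 library was left out (adjusted p up to 0.00474). Of 12 p53 target genes BTG2 rose and the nuclease gene AEN fell from 10, 10 and 11 to 5, 4 and 6 RPKM (-1.05 ± 0.15, limma adjusted p = 0.000643, up to 0.00429 without 1 library). Of 11 WNT pathway genes CTNNB1, the gene of beta-catenin, rose from 29, 28 and 27 to 38, 39 and 39 (0.46 ± 0.05, adjusted p = 7.69e-05) and the corepressor gene TLE1 fell from 6 in each library to 4, 3 and 3 (-0.84 ± 0.11, adjusted p = 0.000325, up to 0.00222 without 1 library). Of 36 sterol and fatty acid genes 2 rose and none fell, and of 76 ZNF zinc finger genes ZNF687 alone was called (1.32% higher), a call lost when any of 5 libraries was left out (adjusted p up to 0.00265). None of 12 histone genes and none of 16 small nucleolar RNA host genes was called. The 2 tested markers of other cells, VIM and PECAM1, missed the threshold, with the values given above.

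The lists covered 86 of the 217 genes that rose and 46 of the 152 that fell. Protein-coding genes made up 208 of 217 and 149 of 152, against 82.9% of all genes tested, while pseudogenes made up 15.2% of the genes tested and 4 and 2 of those called. The genes that rose had a median untreated level of 8.0 RPKM, against 12.7 for all genes and 16.5 for those that fell. This contrast partly follows from the filter, which tested genes low in untreated cells only where treated libraries reached 5 RPKM. An untreated mean under 2 RPKM was found in 21 genes that rose and in 0 that fell. The median exonic length of the genes that rose was 4359 bases, close to the 4305 of all genes, and that of the decreases was 5469. By the mean over the 6 libraries the most abundant genes that rose were SRGN, ALOX5AP and the galactosyltransferase gene B4GALT5, the last from 94, 86 and 87 to 162, 181 and 204 RPKM (limma adjusted p = 0.00106 without untreated replicate 2, which ended its call, and still called without any other 1 library). Several called neighbours share DNA on opposite strands, as do LSP1 and AC051649.2, NR1H2 and NAPSB, SEL1L3 and SMIM20, and TMC6 and TMC8, and for the same reason their values are uncertain.

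The same dose and time of ATRA was also given in the presence of 500 nM palbociclib. The means of combined treatment and of palbociclib alone come from 6 other libraries, but the spread of each gene was estimated from all 12. Of the 217 genes that rose with ATRA alone, 159 (73.3%) also rose in that comparison and all 217 had the same sign, with a median of 1.03. Of the 152 that fell, 67 (44.1%) also fell, and all 152 had the same sign, with a median of -0.56. The corresponding backgrounds were 2.11% higher and 0.997% lower. These are shares of calls, and the share of all genes with the same sign in both comparisons was not counted. CCL2 was at 13, 13 and 15 RPKM with palbociclib and at 226, 265 and 247 with both agents (4.16, limma adjusted p = 9.63e-10), and SERPINB2 at 8, 9 and 16 and then at 1 in each library (-3.27, adjusted p = 7.72e-06). MYC was at 171, 174 and 203 and then at 72, 70 and 107 (-1.16, adjusted p = 0.00142). A test of whether the ATRA effect differed with and without palbociclib called 0 genes in either direction with limma, and 154 and 82 at an unadjusted p-value under 0.05. Libraries with the same number may deviate together across groups, as untreated and ATRA libraries did with correlations of 0.155, 0.367 and 0.088. The 2 comparisons therefore cannot be taken as fully independent. They also share the estimate of the spread, so a gene with a small spread is favoured in both. The shares called in both therefore cannot be read as if they came from separate data.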

How the data were processed

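RNA of HL-60 cells was sequenced in 12 libraries, 3 each of untreated, ATRA, palbociclib and combined treatment. According to the labels and the study's methods, the authors made poly(A) TruSeq libraries, aligned reads to hg38 with HISAT2 and counted them with HTSeq. The deposited score values cover 58233 genes and are RPKM, rounded by the authors to whole numbers, so a value of 0 lies below the step of 1. Counts are not used here, and depth cannot be read from the table. The error given is the limma standard error, with the spread of each gene estimated from all 12 libraries and moderated across genes. It is therefore not 0 for genes with identical values within both groups.

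Groups came from the sample labels. With limma 3.58.1 in R 4.3.3 (eBayes with a variance trend), log2(RPKM + 0.1) in the 12 libraries was modelled by its 4 group means, for the 7820 genes with at least 5 RPKM in at least 3 libraries. All p-values in the text, unless another test is named, are from limma with Benjamini-Hochberg adjustment within a comparison, called under 0.001. For genes at low RPKM the fold change depends on the added constant and on the rounding. On simulated data with 200 changed genes among 7820 for this comparison, the test recovered 15 genes when the log2 change was 0.5, 130 when it was 1 and 193 when it was 2.

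The members, the 43 lists and the tests were chosen with earlier results of these data known. Named genes are the 15 largest increases and decreases among called genes whose groups do not overlap and whose higher mean is at least 5 RPKM, the 3 most abundant called in each direction, up to 4 members per list with the largest called change (otherwise the most abundant), and any member of the 3 retinoid lists. Other list members are named to complete an account of a list or were chosen after their values were seen, as was the comparison with palbociclib. The alternatives were a pseudocount of 1, filters at 1 and 10 RPKM and none, 2 other scalings, a fit to 6 libraries, no variance trend, a threshold of 0.05, a replicate block and each library left out. Of the list entries 4 symbols could not be matched, and 1 list is not reported here. Gene positions and lengths are from GENCODE v44, matched for 7795 of the genes. Tables and plots were made with Python 3.11.15, pandas 2.3.3 and matplotlib 3.10.9, and sequences were read from hg38 with pysam 0.24.0.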

Additional observations from a re-analysis of the deposited data

How the results depend on the processing

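The counts of 217 higher and 152 lower genes stayed within 1.5 times under a pseudocount of 1, a filter at 10 RPKM, median centring, quantile normalization and a fit without a variance trend, where they ranged from 192 to 225 and from 119 to 155. With a filter at 1 RPKM the counts were 273 and 243, and only 171 and 104 of these were among the 217 and 152. With no filter they were 270 and 240, with 170 and 101 shared. A looser filter thus also ended many of the main calls. The fit to 6 libraries gave 54 and 24, and the threshold of 0.05 gave 681 and 909. With each library left out in turn the counts ranged from 126 to 186 and from 47 to 86, on fewer samples. For the other shifts the cause was not tested. The share of increases among the called genes was 58.8%, and it moved to 42.8% at the threshold of 0.05 and to 72.8% without ATRA replicate 2. Rounding to whole RPKM limits the low genes, and 7 of the 217 and 10 of the 152 had identical values within both groups.

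The replicate numbers were checked for pairing. The deviations of same-numbered untreated and ATRA libraries correlated across genes by 0.155, 0.367 and 0.088, so not every pair exceeded 0.1, although every library correlated best with its own number. When the number entered the fit as a block, the counts were 376 higher and 346 lower, 216 and 150 of them shared with the main result.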

Other observations

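Below the level needed for the test, where whole-number RPKM leave little resolution, 18 genes were higher and 15 lower with ATRA by more than 1 step of the rounding among 50413 genes. Those named here were chosen from these after their values were seen, and their limma adjusted p-values come from the fit of genes with at least 1 RPKM in at least 3 libraries. The genes were picked because their groups lie apart, and rounding makes the replicates of some identical. Their p-values therefore add no support of their own. SOCS3, a feedback inhibitor of cytokine receptors, was listed at 0 in untreated cells and at 3, 4 and 4 RPKM with ATRA, and OSM, the cytokine oncostatin M, at 0 and then at 2 RPKM in each library. The cyclin-dependent kinase inhibitor genes CDKN1A and CDKN2D were at 1 RPKM in each untreated library and at 3, 5 and 4 RPKM and 4, 4 and 3 RPKM with ATRA. RUNX2 was at 2, 1 and 2 RPKM and then at 4, 4 and 5. In that fit SOCS3 and CDKN1A had limma adjusted p-values of 4.93e-09 and 0.000325, while CDKN2D, OSM and RUNX2 missed the threshold at 0.00109, 0.00682 and 0.0195.

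In the other direction JUN, the AP-1 subunit gene, was at 4, 5 and 5 RPKM in untreated cells and at 1 RPKM in each ATRA library. The growth factor gene HGF was at 4, 4 and 5 and then at 1, 2 and 2 RPKM, and MIR17HG, the host gene of a microRNA cluster, at 5, 4 and 4 and then at 2 in each library. The transcription factor genes EBF3, FOXA1 and BCL11A were at 3 to 4 RPKM and then at 1 RPKM in each library, and SHISA2 was at 3 RPKM in each untreated library and listed at 0 with ATRA. The limma adjusted p-values, which carry the same limit of selection and rounding, were 2.87e-06 for JUN, 2.39e-05 for EBF3, 3.38e-06 for FOXA1, 6.79e-05 for BCL11A and 7.04e-09 for SHISA2. HGF and MIR17HG missed the threshold at 0.00817 and 0.0193.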
